A study of Mus musculus with 6 samples.

Results

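The levels of 9 genes in the immune cells of mouse liver are described here: Lgals3, Dok2, Tmem254, Abhd4, Rpgrip1, Sh3bp5, Ccnb1ip1, Mtmr9 and Lrmda, which are 9 of the 33696 genes counted. All 9 lie on chromosome 14, as does Traj18, the gene segment deleted in the knockout mice of the study; 1185 of the counted genes were placed on that chromosome. The 9 genes were picked because their levels differed between a knockout and a wild-type library in earlier results of these data, so that difference is described below and is not a finding. The rule set no limit of size, so there is no gene just outside it to set beside them.

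Single CD45+ mononuclear cells of liver were sequenced in 3 groups. The group WT HFD (wild-type HFD below) held wild-type animals fed a diet high in fat (60%). In WT HFD+HDCA (wild-type HDCA below) the same diet carried 0.25% of the bile acid hyodeoxycholic acid. The group iNKT KO HFD+HDCA (the knockout library below) held Ja18-/- animals on the diet with the bile acid, so the knockout has no counterpart without it. Feeding lasted 12 weeks in all groups. Each group had 1 RNA library and 1 T cell receptor library, so no difference between groups could be tested. Intervals below are exact 95% intervals for counting error only. Strain background, age, sex and the number of mice pooled are not given in the sources used here, and a part of the label text names CD4+ cells in place of CD45+ cells.

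Traj18 encodes a joining segment of the T cell receptor α chain. Invariant natural killer T (iNKT) cells, which are plentiful in mouse liver and recognise lipids on CD1d, need it for their receptor, and a mouse without it makes almost none of them. NK cells, group 1 innate lymphoid cells (ILC1), B cells and myeloid cells do not use the segment, since they make no T cell receptor. Traj18 had 158 unique molecular identifiers (UMIs, each standing for 1 captured RNA molecule) in the kept cells of wild-type HFD, 144 in wild-type HDCA and 0 in the knockout library, where a 0 allows up to 0.0695 UMIs per 1000000 UMIs of all genes (CPM). T cells held 151 and 135 of the UMIs of the wild-type libraries.

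Cells were put in 5 classes by a T cell receptor contig and by UMIs of Cd79a, Ncr1 and Lyz2, with NK cells and ILC1 told apart by 6 markers each. The libraries wild-type HFD, wild-type HDCA and the knockout library held 2352, 3323 and 2041 T cells, 551, 953 and 583 NK cells, 155, 213 and 349 ILC1, 2162, 3507 and 2810 B cells, and 303, 641 and 330 myeloid cells; 675, 1041 and 721 cells had no class. The lists of markers hold genes that set the classes, so their sums only describe them: 4006 to 4175 CPM for 7 T cell markers in T cells, 5526 to 5798 CPM for 10 NK markers in NK cells, 3708 to 4174 CPM for 10 ILC1 markers in ILC1, 10415 to 10678 CPM for 7 B cell markers in B cells and 33320 to 34929 CPM for 9 myeloid markers in myeloid cells. Median depth was 5463.5 UMIs per cell in wild-type HDCA and 5119.5 in the knockout library. Pairs of libraries shared 67 to 93 cell barcodes, 1.03% to 1.30% of the smaller library.

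Promoter sequences of 7 of the 9 genes were found among the 32851 of the RefSeq table (build GRCm38.p6). The bases before a transcript start of 3 of them are shown, picked for the traits given next. Lgals3 had the highest ratio of knockout to wild type. Tmem254 is present in that build as 3 copies, Tmem254a, Tmem254b and Tmem254c, and the counts hold 1 of them, whose identifier (ENSMUSG00000072676) is that of Tmem254a. Abhd4 and its neighbour Dad1 start 199 bases apart and run away from each other, so they share the stretch between their starts. Capitals mark a CCAAT box (letters CCAAT) or a GC box (letters GGGCGG), searched on both strands.
Lgals3, chr14:47373610-47373859, + strand: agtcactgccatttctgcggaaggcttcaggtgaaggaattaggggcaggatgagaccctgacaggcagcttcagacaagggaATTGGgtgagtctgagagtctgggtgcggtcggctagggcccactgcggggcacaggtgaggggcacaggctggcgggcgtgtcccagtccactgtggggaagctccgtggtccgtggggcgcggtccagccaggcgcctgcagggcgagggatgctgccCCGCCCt
Tmem254a, chr14:25927673-25927922, - strand: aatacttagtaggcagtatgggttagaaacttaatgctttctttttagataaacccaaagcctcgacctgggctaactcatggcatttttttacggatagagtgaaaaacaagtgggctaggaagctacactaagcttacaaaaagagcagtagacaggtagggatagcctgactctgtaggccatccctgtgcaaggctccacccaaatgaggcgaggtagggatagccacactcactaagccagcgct
Between Dad1 and Abhd4, chr14:54253930-54254128, + strand: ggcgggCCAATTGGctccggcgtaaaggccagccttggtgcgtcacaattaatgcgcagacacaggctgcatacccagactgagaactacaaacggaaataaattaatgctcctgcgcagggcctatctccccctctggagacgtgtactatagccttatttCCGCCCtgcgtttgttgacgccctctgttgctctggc

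The 250 bases before the start of Lgals3 held 1 CCAAT box and 1 GC box, which 33.8% and 32.7% of all promoters hold in a stretch of that length. The 199 bases between Dad1 and Abhd4 held 1 GC box and 2 CCAAT boxes on opposite strands that overlap (31.0% and 29.3% of promoters hold at least 1 of each in that length). Neither box was found before Tmem254a. None of these windows held a TATA box (TATAAA), an AP-1 site (TGACTCA), an E-box (CACGTG) or a Runx site (TGTGGTT), which 12.4%, 4.46%, 6.02% and 4.40% of promoters hold in 250 bases. The 300 bases around the start of Tmem254c were identical to those of Tmem254a, and Tmem254b shared a run of 284 of them. How reads of the copies were shared out in the counts was not tested.

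Galectin-3, the product of Lgals3, is a secreted and cytosolic lectin that binds β-galactosides and is abundant in macrophages and monocytes. In myeloid cells it was at 1868 CPM in wild-type HFD, 1816 CPM in wild-type HDCA and 1899 CPM in the knockout library. The knockout library was at 1.05 times the wild-type HDCA level (1.01 to 1.08). Lymphocytes were different. In ILC1, Lgals3 was at 23.5 CPM in wild-type HFD (16.0 to 33.4), 39.9 CPM in wild-type HDCA (30.7 to 50.9) and 655 CPM in the knockout library (625 to 685), a level 16.4 times that of wild-type HDCA (12.8 to 21.4). In NK cells it was at 25.1, 26.4 and 326 CPM in the same order, 12.3 times higher in the knockout (10.4 to 14.7). Both wild-type libraries were low in these classes and the knockout library was apart from them.

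B cells and T cells followed with smaller ratios. Lgals3 in B cells was at 18.3 CPM in wild-type HFD, 26.9 CPM in wild-type HDCA and 62.4 CPM in the knockout library (ratio 2.32, 2.07 to 2.60). In T cells it was at 41.4, 49.6 and 96.2 CPM (ratio 1.94, 1.80 to 2.10). The order of classes in wild-type HDCA was myeloid, T, ILC1, B and NK, where the intervals of T and ILC1 and those of B and NK overlapped. In the knockout library the order was myeloid, ILC1, NK, T and B, with no overlap between neighbours.

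The share of cells with an Lgals3 UMI was compared after each cell was thinned to 2000 UMIs, which left out 1 to 6 ILC1 and 8 to 22 NK cells per library. Lgals3 was seen in 3.25% of ILC1 of wild-type HFD, 3.32% of wild-type HDCA and 63.0% of the knockout library (57.6% to 68.1%). Unthinned, the shares were 12.3%, 13.1% and 85.4% at median depths of 7953, 7122 and 7675 UMIs. In NK cells the thinned shares were 3.68%, 4.04% and 35.8%, and the unthinned ones 9.07%, 8.81% and 53.5% at medians of 5179, 5384 and 4989 UMIs. In B cells, the lowest class of the knockout library, the thinned shares were 1.79%, 2.88% and 8.63%. The difference was not carried by few cells: the cell with the most Lgals3 UMIs held 1.56% of those of ILC1 and 2.14% of those of NK cells in the knockout library. After thinning, the 5 ILC1 of wild-type HFD and the 7 of wild-type HDCA with Lgals3 had 1 UMI each, while in the knockout library 17.8% of ILC1 had 2 UMIs and 4.37% had 5 or more.

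**Figure D1:**
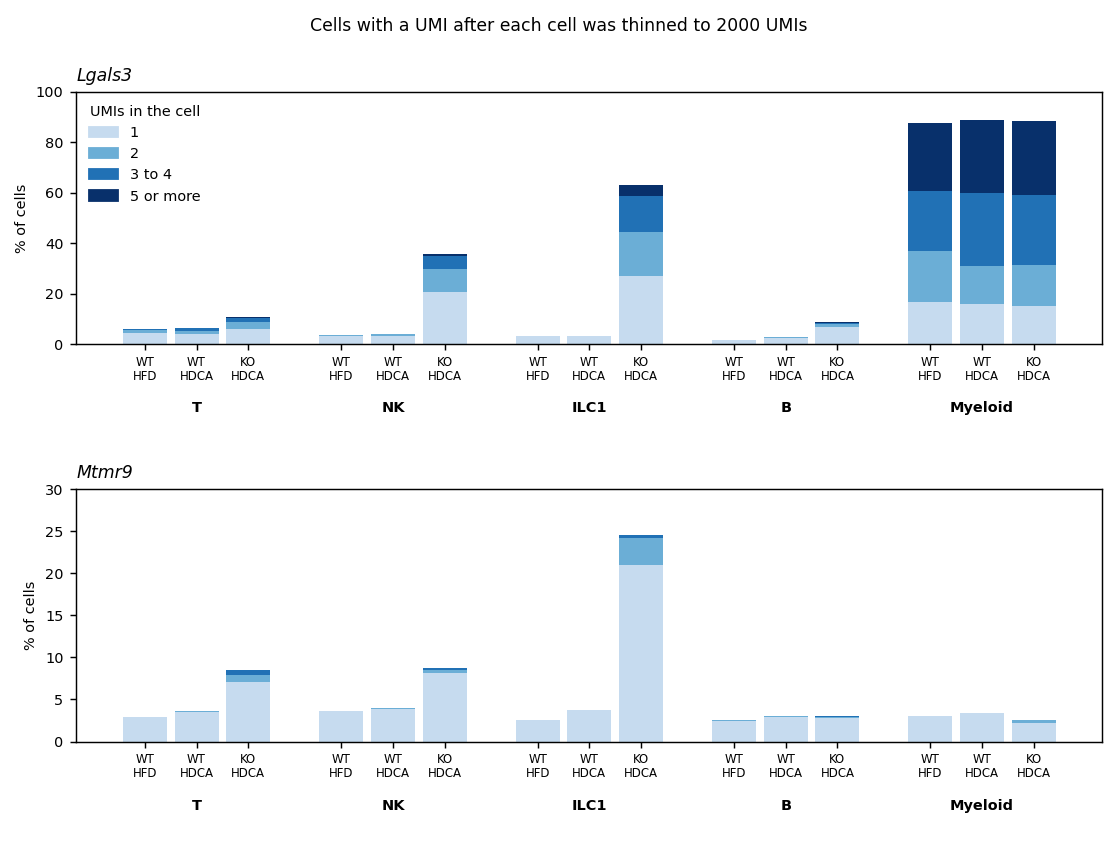
Share of cells (y axis, percent) with 1, 2, 3 to 4, or 5 or more UMIs of Lgals3 (top) and Mtmr9 (bottom) after each cell was thinned to 2000 UMIs, for each class and library (x axis; KO HDCA is the knockout library). Lgals3 reached 63.0% of ILC1 and 35.8% of NK cells in the knockout library against at most 4.04% in the wild-type libraries, and Mtmr9 reached 24.5% of ILC1 against at most 3.79%.

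RNA of myeloid cells that floats free in a droplet suspension can add Lgals3 UMIs to lymphocytes, so Lyz2, a myeloid lysozyme, was read in the same cells. Lyz2 was higher in the knockout lymphocytes: 15.5 to 21.6 CPM over T cells, NK cells, ILC1 and B cells, against 6.91 to 10.6 CPM in wild-type HDCA. The Lgals3 that would come with this Lyz2 was worked out at the ratio of Lgals3 to Lyz2 in myeloid cells of the knockout library. The values were 1.51 CPM in T cells, 1.64 in NK cells, 1.51 in ILC1 and 2.10 in B cells. The measured levels were 96.2, 326, 655 and 62.4 CPM in that order. The class rule allowed these cells at most 4 Lyz2 UMIs, so the values are limited by it. The part of such RNA in the level of Lgals3 was not tested further. The 9 myeloid markers, some of which NK cells and ILC1 also express, summed to 4108, 5050 and 4930 CPM in ILC1 and to 6717, 7065 and 6439 CPM in NK cells. The 7 T cell markers summed to 876, 923 and 743 CPM in ILC1 of the 3 libraries, and the 10 NK markers to 2140, 2457 and 2418 CPM. The 10 ILC1 markers summed to 2373, 2564 and 2601 CPM in NK cells of the 3 libraries. Among them Itga1 and Zfp683 were at 48.7 and 34.7 CPM in the knockout library, against 12.0 and 3.03 CPM in wild-type HDCA. Il7r and Ncr1 were lower there, at 12.5 against 15.8 CPM and 1372 against 1450 CPM, and the other ILC1 markers were higher. The part of these markers in the level of Lgals3 was not tested.

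Within classes the difference in Lgals3 was uneven. NK cells with a Klrg1 UMI, a receptor of mature NK cells, had 29.1 CPM in wild-type HDCA and 400.1 CPM in the knockout library (ratio 13.7), and those without had 22.9 and 208 CPM (9.07). B cells with an Fcer2a UMI, a marker of follicular B cells, had 15.2 and 59.6 CPM (3.92), whereas those without had 62.1 and 71.2 CPM (1.15). In T cells with Cd4 and no Cd8a UMI the values were 74.7 and 124 CPM (1.65), with 34.6 CPM in wild-type HFD, so the wild-type libraries were 2.16-fold apart. With Cd8a and no Cd4 they were 41.6 and 79.0 CPM (1.90). T cells with an Nkg7 UMI, a marker of cytotoxic cells, had 49.9 and 104 CPM (2.08). T cells without it had 47.9 and 68.3 CPM (1.43) and 14.9 CPM in wild-type HFD, a 3.23-fold gap between the wild-type libraries.

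Dok2 encodes an adaptor that is phosphorylated below receptors of T, NK and myeloid cells and damps their signals. It was highest in NK cells, at 330 CPM in wild-type HFD, 371 CPM in wild-type HDCA and 482 CPM in the knockout library (ratio of the HDCA libraries 1.30, 1.22 to 1.39). ILC1 had 275, 258 and 363 CPM (1.41, 1.25 to 1.58), and T cells 109, 120 and 138 CPM (1.14, 1.08 to 1.21). The knockout library was the highest of the 3 in each of these classes, by less than 2-fold. The T cell ratio compares unlike mixes of cells. Wild-type T cells included iNKT cells, which had more Dok2 than the whole class, and the knockout library had almost none.

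B cells had the lowest level of Dok2 in each library. They had 32 UMIs in wild-type HFD, 34 in wild-type HDCA and 188 in the knockout library, which is 3.01, 1.95 and 14.4 CPM and a ratio of 7.36 (5.09 to 10.9). After thinning, 0.141%, 0.317% and 2.58% of B cells had a Dok2 UMI; unthinned the shares were 0.879%, 0.798% and 6.16% at medians of 4495, 4385 and 4220 UMIs. Myeloid cells had 9.38, 10.2 and 15.5 CPM of Dok2, so that in the knockout library the intervals of B cells and myeloid cells overlapped, and thinned shares of 1.35%, 1.94% and 1.91%. The ratio was 7.13 in B cells with Fcer2a. In those without it was 8.22, from 42 against 7 UMIs, and there wild-type HFD had 8.38 CPM, nearer to the 13.2 CPM of the knockout library than to the 1.61 CPM of wild-type HDCA. RNA of T and NK cells was present in the B cells of all libraries: Nkg7 was at 13.9, 7.29 and 5.65 CPM, Cd3e at 6.58, 3.21 and 3.21 CPM, and Klrd1 at 6.40, 1.95 and 4.13 CPM in the 3 libraries. Ccl5 was at 79.5, 22.7 and 29.3 CPM and Gzma at 10.2, 4.25 and 5.81 CPM, so 3 of these 5 genes were higher in the knockout library than in wild-type HDCA and all 5 were highest in wild-type HFD. Their part in the level of Dok2 was not tested. In wild-type HFD a single cell held 31.2% of the Dok2 UMIs of B cells. In myeloid cells the ratio was 1.51 (1.02 to 2.24).

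Mtmr9 encodes a myotubularin-related protein without phosphatase activity that partners active myotubularins, among them Mtmr6, and so bears on membrane phosphoinositides. The classes were within 1.39-fold of each other in wild-type HFD and 1.28-fold in wild-type HDCA, with overlapping intervals between all neighbours in the order of their levels. In the knockout library the highest class was 7.73 times the lowest. ILC1 were at 16.7, 14.96 and 136 CPM (ratio 9.12, 6.04 to 14.4), NK cells at 15.3, 17.9 and 49.3 CPM (2.76, 2.15 to 3.55) and T cells at 13.995, 14.7 and 48.4 CPM (3.28, 2.89 to 3.73). B cells, at 13.5, 14.6 and 17.6 CPM (1.21, 1.005 to 1.45), and myeloid cells, at 18.8, 13.9 and 21.9 CPM (1.57, 1.13 to 2.18), stayed within 2-fold.

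After thinning, 2.60%, 3.79% and 24.5% of ILC1 had an Mtmr9 UMI. Unthinned the shares were 12.9%, 9.39% and 56.7%. In B cells the thinned shares were 2.59%, 2.99% and 2.99%. T cells with Cd4 had 15.7 CPM in wild-type HDCA and 64.4 CPM in the knockout library (4.10), and those with Cd8a 12.6 and 24.0 CPM (1.91). Lgals3 and Mtmr9 were both higher in ILC1 of the knockout library, and there 62 of 343 thinned cells had a UMI of each: Mtmr9 was seen in 28.7% of the 216 cells with Lgals3 and in 17.3% of those without. In T cells of that library the shares were 15% and 7.65%, and in NK cells they were close, 8.96% and 8.61%. Cells without a class had Mtmr9 at 17.2, 12.8 and 50.1 CPM (3.92, 3.12 to 4.95).

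Tmem254 encodes a small transmembrane protein. It was lower in the knockout library in each of the 5 classes, by 2-fold or more, but in myeloid cells the ratio was 0.628 after thinning and 0.516 with stricter class thresholds. T cells had 78.8 CPM in wild-type HFD, 82.9 CPM in wild-type HDCA and 26.0 CPM in the knockout library, 0.314 times the level of wild-type HDCA (0.281 to 0.350). NK cells had 189, 212 and 56.0 CPM (0.264), ILC1 209, 234 and 73.0 CPM (0.312), and B cells 43.8, 49.2 and 18.8 CPM (0.382). Myeloid cells, the lowest class, had 15.3, 22.2 and 9.66 CPM (0.435, 0.283 to 0.649), and there the interval of the knockout library, 6.52 to 13.8 CPM, overlapped that of wild-type HFD, 11.1 to 20.5 CPM. The order of the classes was ILC1, NK, T, B and myeloid in all 3 libraries, and only the intervals of ILC1 and NK cells overlapped. Within T, NK and B cells the ratio was 0.244 to 0.453 in each of the 8 splits by Cd4, Cd8a, Nkg7, Klrg1 and Fcer2a.

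**Figure D2:**
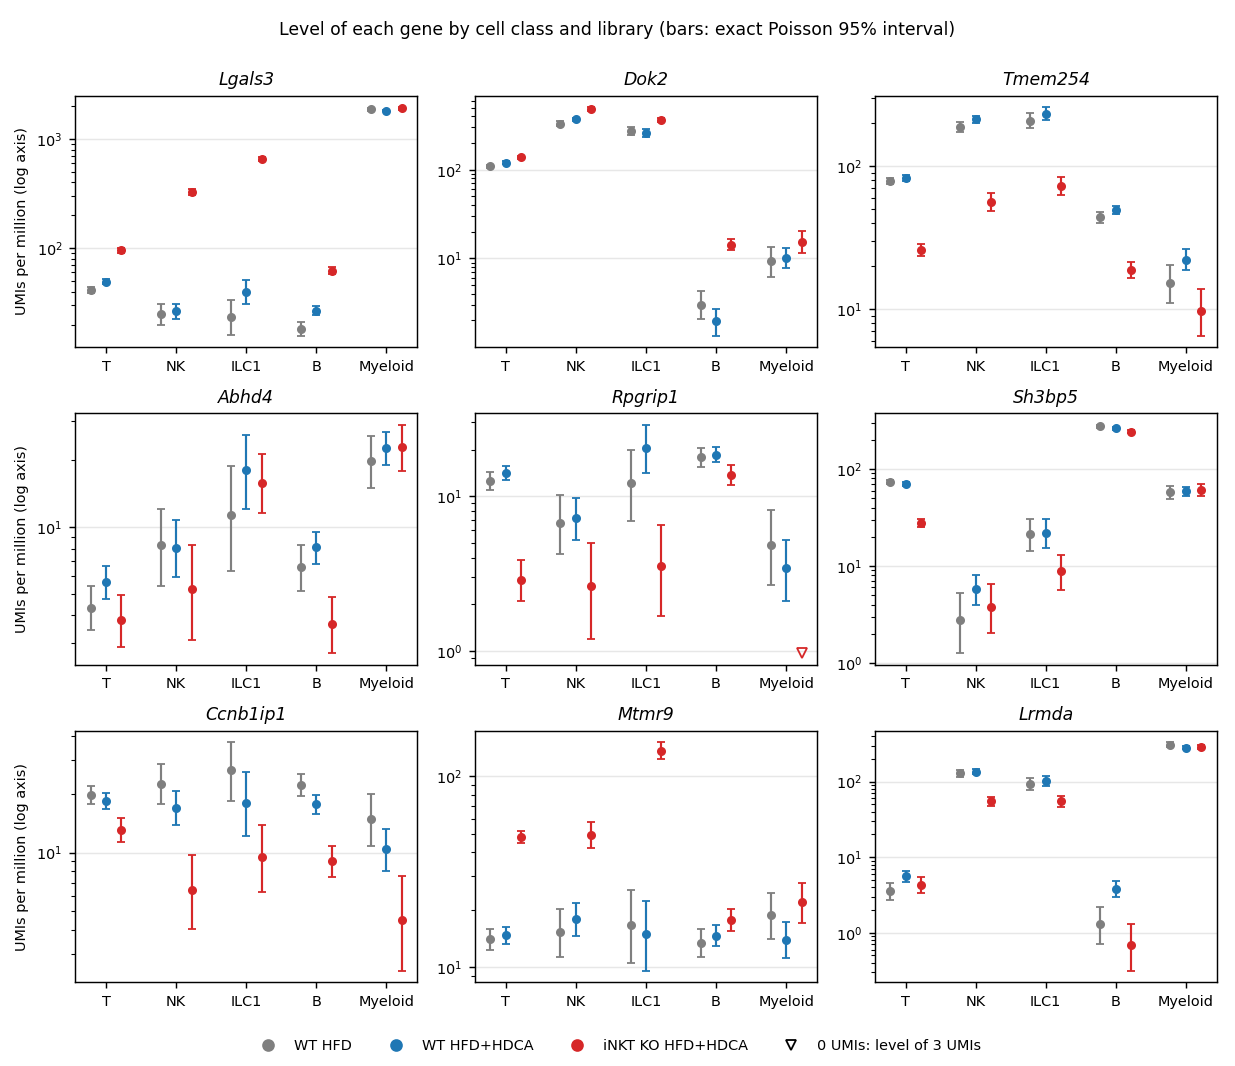
Level of each of the 9 genes in CPM (y axis, log scale) by cell class (x axis) and library (color); bars are exact Poisson 95% intervals, and the triangle marks a library with 0 UMIs at the level of 3. Tmem254 was lowest in the knockout library in all 5 classes, while Lgals3 was at 1816 to 1899 CPM in myeloid cells of all 3 libraries and reached 655 CPM in ILC1 of the knockout library only.

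Rpgrip1 and Ccnb1ip1 act outside the immune system in their best known roles. The protein of Rpgrip1 anchors the RPGR complex in the connecting cilium of photoreceptors, and Ccnb1ip1 (also called HEI10) encodes a ubiquitin ligase needed for meiotic crossovers. Rpgrip1 in T cells was at 12.6 CPM in wild-type HFD, 14.2 CPM in wild-type HDCA and 2.89 CPM in the knockout library (0.204, 0.146 to 0.280). ILC1 had 16, 33 and 10 UMIs (12.1, 20.6 and 3.52 CPM; 0.171, 0.0753 to 0.356), and NK cells 22, 43 and 9 UMIs (6.74, 7.24 and 2.63 CPM; 0.363, 0.155 to 0.754). B cells, at 17.8, 18.5 and 13.8 CPM (0.742, 0.615 to 0.893), were within 2-fold. Myeloid cells had 14, 21 and 0 UMIs. With 0 taken as 3 UMIs the knockout library was at least 3.52-fold lower, which leaves out the counting error of wild-type HDCA; with it, the interval of the ratio reaches 0.381.

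Ccnb1ip1 was below wild-type HDCA in all 5 classes of the knockout library, and also below wild-type HFD in wild-type HDCA in all 5. Between the wild-type libraries the interval of the ratio held 1 in every class but B cells (0.795, 0.669 to 0.946). NK cells had 22.7, 17.0 and 6.42 CPM (knockout to wild-type HDCA 0.377, 0.226 to 0.603) and myeloid cells 14.9, 10.4 and 4.51 CPM from 43, 64 and 14 UMIs (0.434, 0.225 to 0.783). B cells, at 22.3, 17.7 and 9.02 CPM (0.508), ILC1, at 26.6, 18.1 and 9.52 CPM (0.526), and T cells, at 19.9, 18.4 and 13.1 CPM (0.713), were less than 2-fold apart.

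Sh3bp5 encodes a protein of the outer mitochondrial membrane that binds the kinase JNK and activates the small GTPase Rab11. B cells had the highest level, at 276 CPM in wild-type HFD, 263 CPM in wild-type HDCA and 244 CPM in the knockout library (0.926, 0.885 to 0.969). Myeloid cells were at 57.6, 58.9 and 60.6 CPM (1.03, 0.858 to 1.23). T cells were at 73.9, 69.5 and 27.9 CPM (0.401, 0.360 to 0.447), with ratios of 0.400 to 0.448 with or without Nkg7 and with Cd4 or Cd8a. ILC1 had 21.2, 21.8 and 8.81 CPM from 28, 35 and 25 UMIs (0.404, 0.232 to 0.694). NK cells had only 9, 34 and 13 UMIs, and their ratio of 0.662 has an interval from 0.321 to 1.29. Sh3bp5 was thus at least 2-fold lower in T cells and ILC1 of the knockout library and within 2-fold in the other 3 classes.

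Lrmda encodes a leucine-rich repeat protein needed for melanocyte differentiation. It was highest in myeloid cells, at 310 CPM in wild-type HFD, 280 CPM in wild-type HDCA and 289 CPM in the knockout library (1.03, 0.950 to 1.12). In NK cells it was at 129, 135 and 55.1 CPM (0.408, 0.346 to 0.478), and in ILC1 at 94.1, 103 and 55.0 CPM (0.531, 0.424 to 0.665). NK cells with Klrg1 had 133 CPM in wild-type HDCA and 35.9 CPM in the knockout library (0.269), and those without had 138 and 86.1 CPM (0.625). B cells had 14, 67 and 9 UMIs, so their ratio of 0.179 (0.0784 to 0.360) rests on few molecules, and the wild-type libraries were 2.92-fold apart themselves (1.62 to 5.63). T cells had 3.55, 5.58 and 4.34 CPM (0.777, 0.571 to 1.05).

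Abhd4 encodes a lipase that acts on N-acyl phospholipids, in a pathway to N-acylethanolamines. It was low in lymphocytes. B cells had 6.58 CPM in wild-type HFD, 8.09 CPM in wild-type HDCA and 3.67 CPM in the knockout library (0.453, 0.320 to 0.633). T cells had 4.33, 5.66 and 3.81 CPM (0.673, 0.487 to 0.920), and myeloid cells, the highest class, had 19.8, 22.7 and 22.9 CPM (1.01, 0.746 to 1.35). NK cells and ILC1 had 18 to 48 and 15 to 45 UMIs a library, and the intervals of their ratios, 0.356 to 1.14 and 0.538 to 1.45, hold 1.

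Counted together, 23 of the 45 pairs of gene and class were at least 2-fold apart between the HDCA libraries, with at least 20 UMIs in the 2 libraries. T cells had 4 of 9 (1 higher, 3 lower), where 3.19% of all 13602 genes with that many UMIs were as far apart (1.16% higher, 2.03% lower). NK cells had 6 of 9 (2 higher, 4 lower; all genes 3.51%, 1.38% and 2.14%), ILC1 5 of 9 (2 higher, 3 lower; 4.29%, 2.13% and 2.16%), and B cells 5 of 9 (2 higher, 3 lower; 2.96%, 1.35% and 1.61%). Myeloid cells had 3 of 9, all lower (5.02%, 1.04% and 3.98%). The genes were chosen by this contrast, so these counts only describe them. The median absolute log2 ratio of the 9 genes was 0.60 in myeloid cells and 0.96 to 1.41 in the other classes, against 0.14 to 0.21 over all genes.

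The wild-type libraries can be set side by side as well, although wild-type HDCA serves in both comparisons and it is not known whether wild-type HFD had a part in the choice of the genes. In 2 of 45 pairs the gene was at least 2-fold apart between wild-type HDCA and wild-type HFD: Sh3bp5 in NK cells (34 against 9 UMIs, ratio 2.08, 0.975 to 4.92) and Lrmda in B cells. By class that is 1 of the 9 genes in NK cells, higher (all genes 2.52%, with 1.74% higher and 0.779% lower), and 1 in B cells, higher (2.79%, 1.61% and 1.18%). T cells, ILC1 and myeloid cells had 0 of 9, where all genes gave 2.15% (1.27% and 0.874%), 3.54% (1.68% and 1.86%) and 4.25% (3.28% and 0.974%). For 33 of the 45 pairs the interval of the ratio held 1. For the knockout it was 7 of 45, but the genes were chosen by that contrast, so the 2 counts cannot be compared. Neither has the share over all genes beside it. Median absolute log2 ratios of the 9 genes were 0.14 to 0.30, and those of all genes 0.12 to 0.21.

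**Figure D3:**
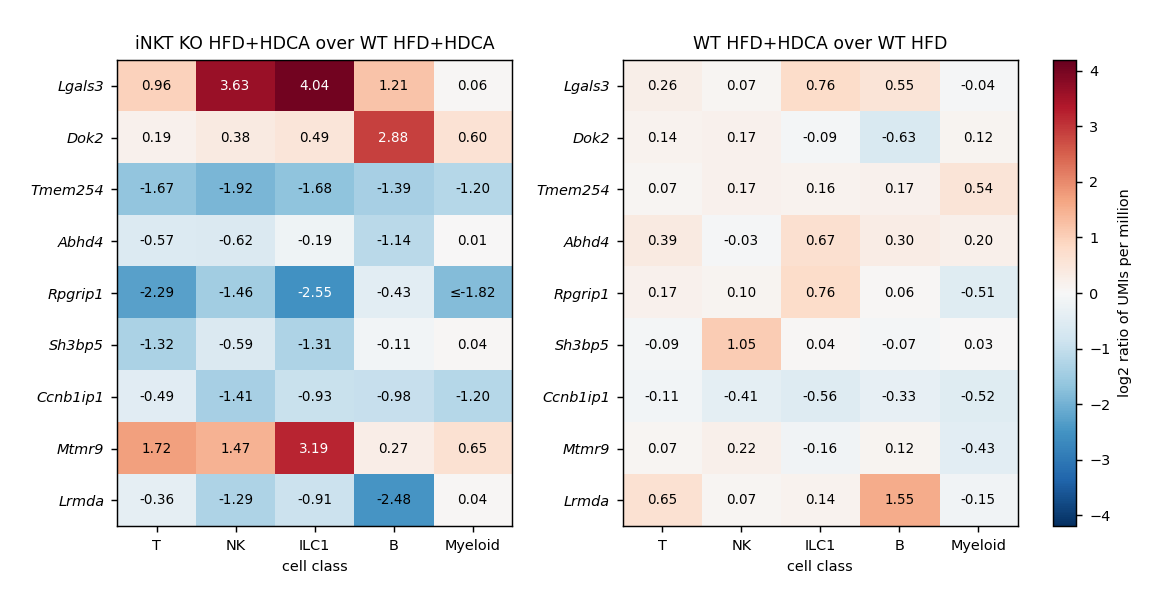
Log2 ratio of CPM (color and number) of each of the 9 genes (rows) in each class (columns), for the knockout library over wild-type HDCA (left) and wild-type HDCA over wild-type HFD (right); the mark ≤ is an upper bound where the knockout library had 0 UMIs. The left panel runs from -2.55 for Rpgrip1 to 4.04 for Lgals3, both in ILC1, and the right panel from -0.63 for Dok2 to 1.55 for Lrmda, both in B cells.

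The 9 genes were placed by the order of genes along chromosome 14 in the GRCm38.p6 table, counting only genes with at least 100 UMIs over the 3 libraries. Of 430 such genes 186 come before Traj18 and 244 after it. Abhd4 is the nearest, in place 2 after Traj18, then Rpgrip1 in place 8 before it, Ccnb1ip1 in place 25, Lgals3 in place 36, Sh3bp5 in place 81, Tmem254 in place 116 and Lrmda in place 126. Mtmr9 and Dok2 are in places 105 and 149 after it. The genes were therefore not next to each other, and higher and lower ones stood on both sides: Lgals3 before and Mtmr9 and Dok2 after, with the lower ones before Traj18 except Abhd4.

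The genes directly beside the 9 were compared in the same way. Of 70 pairs of a neighbour and a class, 4 were at least 2-fold apart between the knockout library and wild-type HDCA, and 3 of 67 between wild-type HDCA and wild-type HFD; over all genes the shares by class were 2.96% to 5.02% and 2.15% to 4.25%. Beside Rpgrip1, Hnrnpc (an RNA-binding protein) had ratios of 0.914 to 0.991 and Supt16 (a histone chaperone) 0.998 to 1.09. Beside Tmem254, Anxa11 (a calcium-dependent lipid-binding protein) had 0.944 to 1.11. Beside Dok2, Xpo7 (a nuclear exporter) had 0.780 to 1.07 and Fndc3a 0.652 to 1.04, and beside Lgals3, Mapk1ip1l had 0.849 to 1.04. Beside Ccnb1ip1, Ttc5 had 0.974 to 1.07 and Parp2 (a DNA repair polymerase of ADP-ribose) 0.592 to 0.981. Beside Sh3bp5, Capn7 had 0.745 to 1.12 and Mettl6 0.687 to 1.04.

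The 4 pairs past 2-fold were Gm15918 in T cells and ILC1, Gm43305 in T cells, and Dlgap5, beside Lgals3, in ILC1 (29 against 2 UMIs). Dad1 was within 2-fold but below 1 throughout. Dad1, a subunit of the enzyme that attaches N-glycans, shares with Abhd4 the stretch printed above and is the first measured gene after Traj18, receptor segments left aside. It was lower in the knockout library in all 5 classes, at 0.712 times wild-type HDCA in T cells, 0.643 in NK cells, 0.600 in ILC1, 0.735 in B cells and 0.843 in myeloid cells, while wild-type HDCA was at 1.01 to 1.11 times wild-type HFD. Abhd4 itself was below 1 in 4 of the 5. Gm43305, next after Abhd4, was at 0.410 in T cells (298 against 1190 UMIs) and 0.615 to 0.809 in the other classes. Gm15918, a gene model beside Mtmr9, was at 6.93 in T cells (55 against 13 UMIs) and 8.48 in ILC1 (60 against 4), where Mtmr9 was at 3.28 and 9.12. Xkr6, the next gene after it, had 218 against 92 UMIs in T cells (3.88). The part of reads shared between these overlapping or adjacent models in the counts was not tested.

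**Figure D4:**
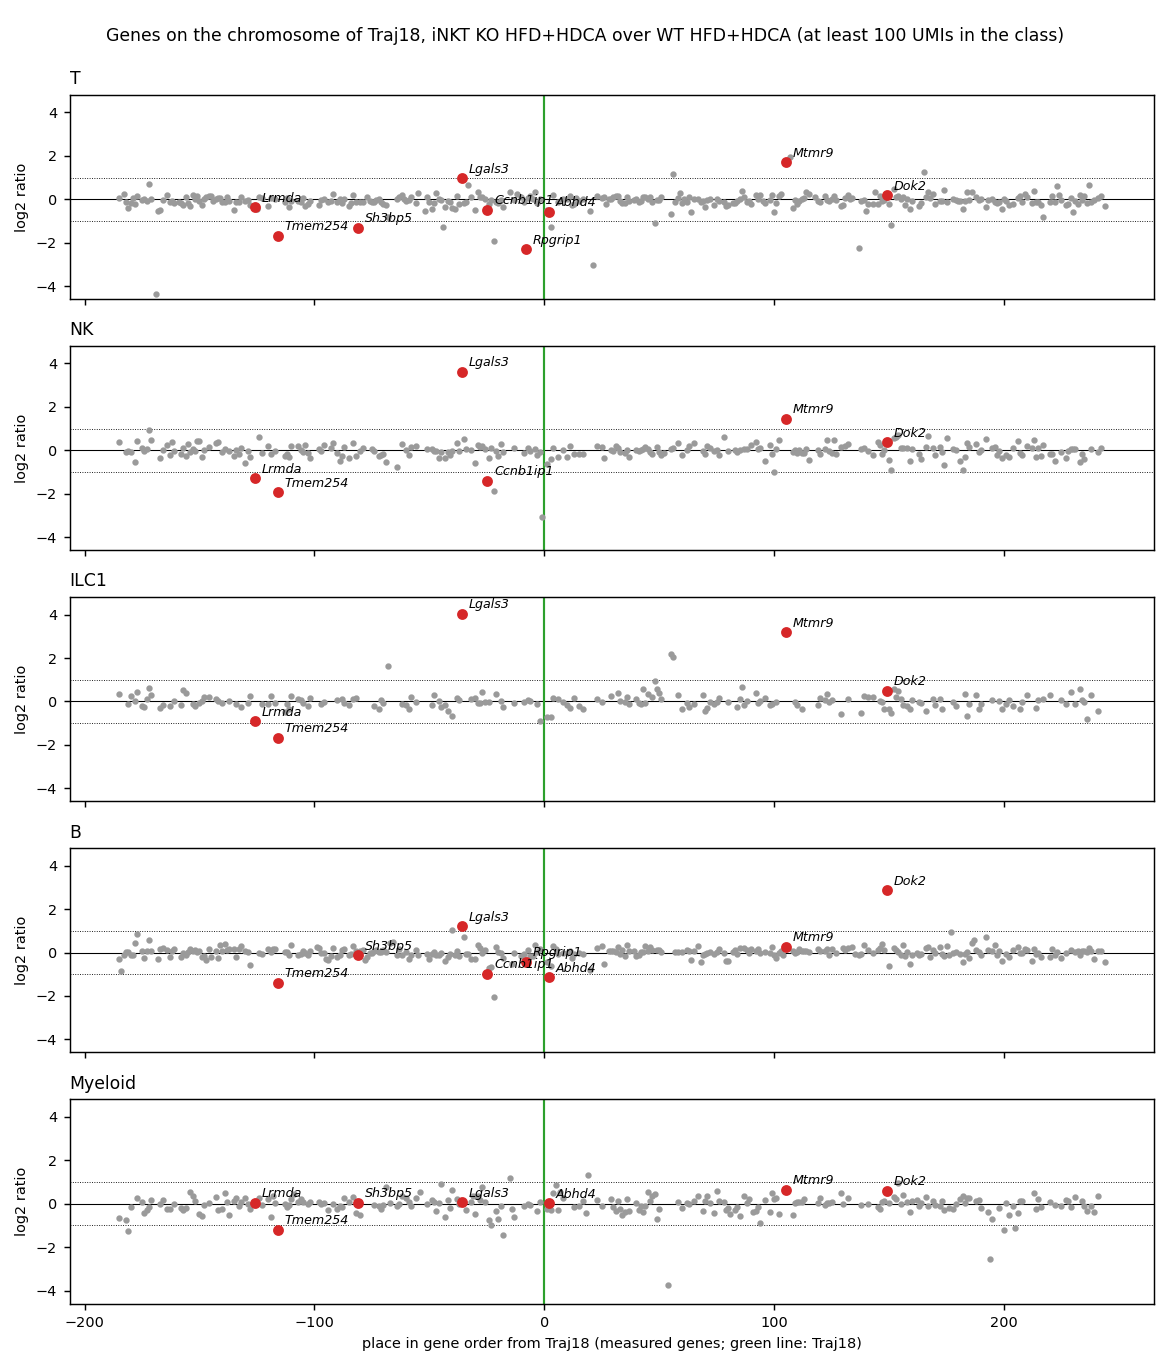
Log2 ratio of the knockout library over wild-type HDCA (y axis) for genes with at least 100 UMIs in the class, by place in the order of genes from Traj18 (x axis; green line Traj18, dotted lines 2-fold), 1 panel per class; red points are the 9 genes where they had that many UMIs, gray points other genes. Most gray points lie within 2-fold, and Tmem254, in place 116 before Traj18, is below the lower line in all 5 panels.

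Other genes of the chromosome were counted without the 9, at a minimum of 100 UMIs. Between the knockout library and wild-type HDCA, T cells had 11 of 343 at least 2-fold apart (3.21%), NK cells 2 of 272 (0.735%), ILC1 3 of 209 (1.44%), B cells 2 of 323 (0.619%) and myeloid cells 8 of 263 (3.04%). On the other autosomes the shares were 0.596%, 0.551%, 0.636%, 0.515% and 0.99% in that order. Without the 9 genes, chromosome 14 was above each of the other autosomes in T cells, where the highest of them was chromosome 1 with 1.19%, and in myeloid cells, where it was chromosome 16 with 1.98%. It was below the highest in NK cells (chromosome 13, 2.19%), ILC1 (chromosome 16, 1.55%) and B cells (chromosome 15, 1.58%). Genes chosen by this contrast were taken out of chromosome 14 only, which lowers its share beside the other autosomes. A place below the highest therefore cannot be judged. Between wild-type HDCA and wild-type HFD the shares without the 9 genes were 0.289%, 0.0%, 1.33%, 0.312% and 1.56% in T, NK, ILC1, B and myeloid cells, against 0.321%, 0.269%, 0.384%, 0.487% and 0.83% on the other autosomes.

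Among those other genes several were far apart. In T cells 1700062C10Rik had 0 UMIs in the knockout library against 100 in wild-type HDCA, at least 20.4-fold lower with 0 taken as 3 and the error of wild-type HDCA left out; with it, the interval of the ratio reaches 0.0615. Ppp1r3e, a glycogen-targeting phosphatase subunit, was at 0.122 (12 against 161 UMIs) and Egr3, an immediate early factor below the antigen receptor, at 0.209. Gm26782 was at 0.265 in T cells, 0.269 in NK cells and 0.238 in B cells. Gm30275, the nearest measured gene before Traj18, was at 0.119 in NK cells (8 against 116 UMIs). Gzmb, the gene of granzyme B, was at 2.26 in T cells and 4.12 in ILC1. In myeloid cells Ctsg, a protease of neutrophils, was at 0.0747 (5 against 133 UMIs), but wild-type HFD had only 3 UMIs of it, and 4 neutrophil markers summed to 2869, 7318 and 3607 CPM in myeloid cells of the 3 libraries. These 7 were chosen after their values were seen.

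**Figure D5:**
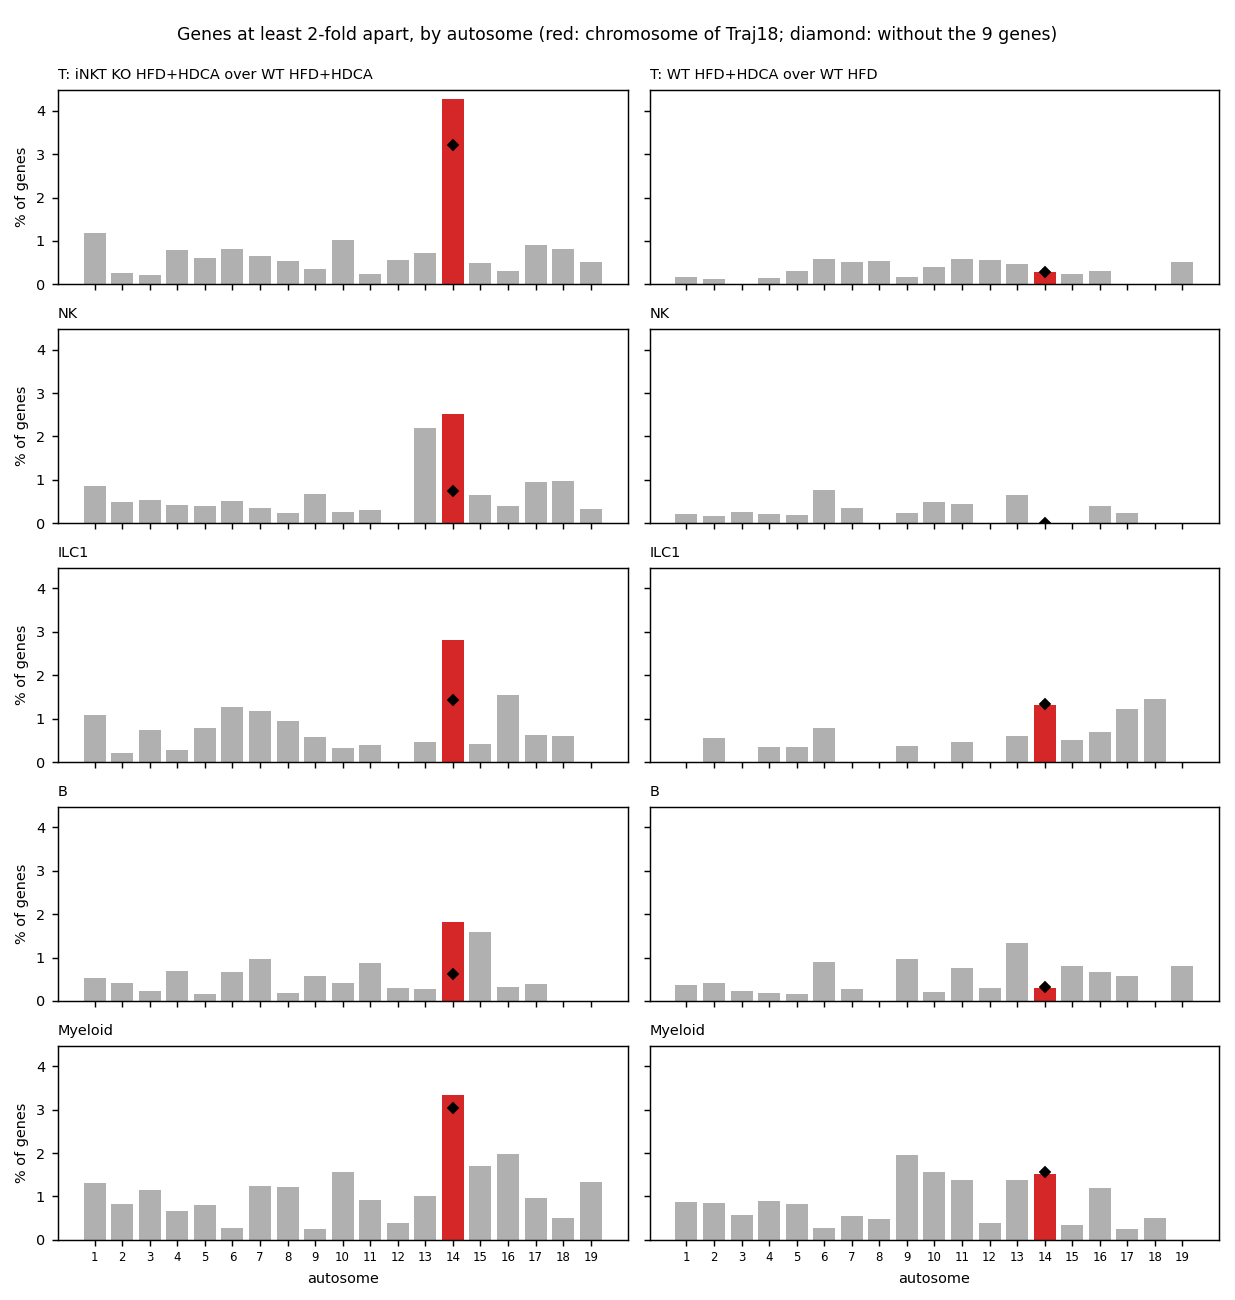
Share of genes with at least 100 UMIs that were at least 2-fold apart (y axis, percent) on each autosome (x axis), by class (rows), for the knockout library over wild-type HDCA (left) and wild-type HDCA over wild-type HFD (right); the red bar is chromosome 14 and the diamond its share without the 9 genes. The red bars on the left hold the genes chosen for this contrast. The diamond leaves them out of chromosome 14 only, which lowers it beside the gray bars. On the left it is above all gray bars in T and myeloid cells. It is below the highest gray bar in NK cells (0.735% against 2.19%), ILC1 (1.44% against 1.55%) and B cells (0.619% against 1.58%), which cannot be judged for that reason.

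The relatives of the 9 genes lie almost all on other chromosomes. The 51 relatives and partners listed by family gave 205 pairs with enough UMIs, of which 2 were higher and 5 lower by at least 2-fold between the knockout library and wild-type HDCA (3.41%), a share near the 2.96% to 5.02% of all genes by class. Lgals1, the gene of galectin-1, had ratios of 0.769 to 1.22 and Lgals9, of galectin-9, 0.900 to 1.06, whereas Lgals3bp, of a secreted glycoprotein that binds galectin-3, was at 0.476 in B cells (39 against 109 UMIs). Dok1, an adaptor that acts beside Dok2, had 0.914 to 1.18, and Dok3, the relative of B and myeloid cells, 1.18 and 1.15 in those classes. Mtmr6, the active partner of Mtmr9, lies on chromosome 14 too and had 0.905 to 1.27. None of 12 measured myotubularins was 2-fold apart in T cells, where Mtmr9 was at 3.28. Sh3bp5l had 0.998 to 1.24. Rpgr, whose product Rpgrip1 anchors, was at 0.833 in T cells, and Rpgrip1l at 0.819.

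For each of the 9, the gene with the most similar pattern was sought among 13457 genes, by Pearson correlation of log2(CPM + 5) over the 15 values of class and library. Those 15 values share libraries and cells, and the correlations are descriptive. For the genes other than Lgals3, the most similar were Vasp for Dok2 (0.99), Dad1 for Tmem254 (0.97), Pde7b for Abhd4 (0.95), Mettl2 for Rpgrip1 (0.87), 2410006H16Rik for Sh3bp5 (0.97), Tatdn1 for Ccnb1ip1 (0.83), Gm15918 for Mtmr9 (0.91) and P4hb for Lrmda (0.99). Among these, Dad1 and Gm15918 lie on chromosome 14. Vasp, a regulator of actin filaments, had ratios of 0.913 to 1.21 between the knockout library and wild-type HDCA, so a high correlation here did not need a difference between those libraries.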

How the data were processed

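The deposited counts were UMIs per gene and cell barcode from Cell Ranger 8.0.1, per the file headers, of droplets the authors had already filtered (lowest totals 500 to 502 UMIs). The deposited T cell receptor tables gave the authors' counts of reads and UMIs per contig. Barcodes of contigs served the classes, and UMIs per contig served the stricter thresholds. The V and J segments of α chains marked the cells with an iNKT receptor. Per the submitters' processing notes the builds were mm10 and GRCm39, with no word on which served the counts, so no coordinates of genes were taken from the files; gene order came from a RefSeq table of GRCm38.p6, which placed 25627 of 33696 genes (76.1%) by symbol or synonym. Of the genes with at least 100 UMIs, over which chromosomes were compared, 95.5% to 99.1% were placed.

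Depth was 44332213 UMIs in wild-type HFD, 70776925 in wild-type HDCA and 46600746 in the knockout library. Barcodes needed 200 genes or more and a mitochondrial share below 10%. Predicted doublets of each library (Scrublet: 3.52%, 4.85% and 4.00% of barcodes; scanpy 1.11.5) were removed, leaving 6198, 9678 and 6834 cells. T cells had a contig, at most 1 Cd79a and 4 Lyz2 UMIs and no Ncr1 UMI. B cells had at least 2 Cd79a UMIs, myeloid cells at least 5 Lyz2 UMIs, and NK cells and ILC1 at least 1 Ncr1 UMI, all without a contig. UMIs of each class were added up within a library and divided by the class total to give CPM, with no further scaling. Levels carry exact Poisson intervals, ratios conditional exact binomial intervals and shares exact Clopper-Pearson intervals; a count of 0 was taken as 3. With 1 library per group no test of a difference was run. The computation of ratios and intervals was checked on simulated Poisson counts. These held no variation between cells, mice or libraries, so the check does not cover such variation. T cell receptor and immunoglobulin segments were left out of counts over all genes, and mitochondrial genes only out of the shares by chromosome.

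The 9 genes, their families and the class rules were chosen with earlier results of these data known. Named besides the 9 were Traj18, the nearest measured gene on each side, the relatives by family, and the gene most similar in pattern, which for Lgals3 is not reported here. Alternatives were thinning to 2000 UMIs, stricter class thresholds, no cell filter, median-ratio scaling, leaving out the cell with the most UMIs, other folds and other UMI minimums. T cells without iNKT-type cells (TRAV11 or TRAV11D joined to TRAJ18) and the split by Nkg7 were chosen after seeing the data.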

Additional observations from a re-analysis of the deposited data

How the results depend on the processing

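No paired analysis was possible because each group had 1 library. The median log2 ratio over all genes was -0.05 to 0.03 by class, and median-ratio scaling kept all 23 values at least 2-fold apart for the knockout. Without iNKT-type cells the 4 of T cells were kept, and 1 of the 9 T cell ratios left its interval. Without the cell with the most UMIs 22 of 23 were kept, and without a cell filter all 23. Thinning kept 16 of the 22 that could be given; of those lost, plus Rpgrip1 in myeloid cells, 6 had under 20 UMIs left and 1, Tmem254 in myeloid cells, moved to 0.628. The count fell to 3 genes in ILC1 and 0 in myeloid cells. Stricter thresholds left 1 in myeloid cells, where Tmem254 was at 0.516 on 134 UMIs and Rpgrip1 had only 12 UMIs. The count of 3 in that class thus depends on the setting. A fold of 1.5 gave 5 there. For wild-type HDCA against wild-type HFD, thinning gave 0 in NK and 0 in B cells and turned Sh3bp5 in NK cells to a log2 ratio of -0.31 on 12 UMIs. Stricter thresholds gave 0 in NK cells and 1 in myeloid cells. No cell filter gave 0 in B cells, and a minimum of 50 UMIs 0 in NK cells. At 1.5-fold there was 1 gene in T cells, 3 in ILC1 and 2 in B cells. The share over all genes is given only at 2-fold and at least 20 UMIs, for the unthinned, filtered and unscaled counts of the main classes. Whether the counts of the 9 genes under any other setting stand out, for either comparison, therefore cannot be judged. That holds for thinning, stricter thresholds, no cell filter, scaling, 1.5-fold and 50 UMIs.

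The share of other genes of chromosome 14 can only fall or stay as the fold rises. For the knockout at 1.5-fold it was 5.54%, 5.51%, 6.70%, 4.02% and 9.89% in T, NK, ILC1, B and myeloid cells. Other autosomes had 2.87%, 3.52%, 4.69%, 2.20% and 4.85% in that order. At 3-fold it was 1.46%, 0.735%, 1.44%, 0.310% and 0.760%, against 0.105%, 0.121%, 0.177%, 0.168% and 0.349% on other autosomes. In NK cells and ILC1 the shares equalled those at 2-fold, from 2 and 3 genes. For wild-type HDCA against wild-type HFD it was 2.24% in NK and 5.06% in myeloid cells at 1.5-fold, against 2.09% and 3.77% on other autosomes. At 3-fold it was 0 in T cells and ILC1 (0.114% and 0.158%), 0.312% in B cells (0.125%) and 1.17% in myeloid cells (0.295%). With 1 library per group, genotype, the mice used and library preparation cannot be told apart for the knockout.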

Other observations

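The cells without a class, which numbered 675 in wild-type HFD, 1041 in wild-type HDCA and 721 in the knockout library, had Lgals3 at 249, 269 and 405 CPM and Tmem254 at 91.5, 95.9 and 34.8 CPM. Rpgrip1 was higher in these cells than in any of the 5 classes of the same library, at 41.6, 53.7 and 19.2 CPM. Their make-up was not resolved.

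T cells with an iNKT receptor numbered 321 in wild-type HFD, 432 in wild-type HDCA and 1 in the knockout library. In the wild-type libraries they had Dok2 at 265 and 284 CPM, above the 109 and 120 CPM of the whole T class, and Lgals3 at 44.5 and 49.4 CPM. Sh3bp5 was at 42.6 and 39.5 CPM in them, below the 73.9 and 69.5 CPM of the T class.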
